A study of Mus musculus with 10 samples.

Results

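Genes of oxidative phosphorylation were followed across amacrine cells of the mouse retina. They were chosen by name, as every gene symbol of the count table that starts with Nduf, Uqcr, Atp5, mt- or Cox and a digit from 4 to 8, together with Sdha, Sdhb, Sdhc and Sdhd. This rule took 105 of the 27933 gene symbols: 92 nuclear genes and the 13 protein-coding genes of the mitochondrial genome, whose symbols begin with mt-. By role, the nuclear genes held 36 subunits of complex I, 8 assembly factors of complex I, 4 subunits of complex II, 8 of complex III, 19 of complex IV and 15 of ATP synthase, or complex V. Atp5s and Cox7a2l, a factor that joins respiratory complexes into supercomplexes, were kept apart. The mt- genes encode 7 subunits of complex I, 1 of complex III, 3 of complex IV and 2 of complex V.

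As background, complexes I to IV sit in the inner mitochondrial membrane, pass electrons from NADH and succinate to oxygen, and (complex II excepted) pump protons as they do so. ATP synthase lets the protons flow back and makes ATP. Most subunits are encoded in the nucleus and imported into the organelle, while core subunits such as cytochrome c oxidase subunit 1 and cytochrome b are encoded by mitochondrial DNA, so that complexes I, III, IV and V need RNA from both genomes. The retina is known for a high use of energy, a large part of which neurons spend on restoring ion gradients.

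All cells came from mice of a single cre-GFP strain at postnatal day 19, and no other genotype, age or treatment was present. After papain dissociation the sort kept cells without GFP and without antibody label for CD133 (Prom1) or CD73 (Nt5e), both carried by photoreceptors, if Calcein Blue marked them as alive; amacrine cells were the aim. The deposited table held UMIs, that is, captured RNA molecules counted once each, for 32523 cells in 10 libraries made with droplet 3′ chemistry, of which the labels place 1 in batch 1, 5 in batch 2 and 4 in batch 3. The labels do not say that libraries came from separate animals, so every error and p-value given here covers the variation from library to library, and this may be technical.

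The libraries held 950 to 4738 cells and 6302659 to 26028492 UMIs, with a median of 3296.5 to 5717 UMIs per cell. Libraries 5 and 6 shared 312 cell barcodes, 7.0% of the smaller of the pair, libraries 2 and 3 shared 59, and no other pair shared more than 32. Leaving out every cell whose barcode occurred in more than 1 library moved no count of members called in the direction of most by over 1.5 times; of the few called in the other direction, the nuclear genes lower in the Gjd2 gate went from 2 to 1 and those higher in the Vip gate from 1 to 2. Of the retinal classes the sort could have let through, summed rod markers made up 0.00955% to 0.0161% of UMIs per library and Müller glia markers 0.0988% to 0.120%.

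Cells were grouped by gates, each a minimum number of UMIs of transmitter or type genes in a cell. The Gad gate needed at least 2 UMIs of Gad1 or Gad2, the enzymes that make GABA, and none of Slc6a9, the glycine transporter of glycinergic amacrine cells, and took 16415 cells. The Slc6a9 gate was the reverse and took 4556 cells. At least 3 UMIs of Gjd2, the connexin that couples AII cells, took 1940 cells, and at least 2 UMIs of Chat or Slc18a3, which make and load acetylcholine in starburst cells, took 651. The vesicular glutamate transporter Slc17a8, known from VG3 cells, took 666 cells at 2 UMIs, and the neuropeptide Vip took 930 cells at 5 UMIs. Every gate had at least 17 cells in each library. Gates overlapped: 48.1% of the Gjd2 gate also lay in the Slc6a9 gate, and 77.6% of the Chat gate and 70.5% of the Vip gate lay in the Gad gate.

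Markers that the gates did not use were then read. In the Gjd2 gate, Prox1, Dab1 and Nfia of the AII list were higher than in all other cells in 10 of 10 libraries, whereas Calb2 was higher in 4 of 10. In the Chat gate, Slc5a7, Sox2 and Isl1 of the starburst list were higher in 10 of 10 libraries and Megf10 in 9 of 10. In the Slc17a8 gate, Lhx2 stood at 283 ± 60.2 CPM (counts per 1000000 UMIs; SD, n = 10) against 12.9 ± 2.33 CPM in other cells. Slc6a9, also on the VG3 list, stood there at 413 ± 128 against 305 ± 133 CPM, higher in 8 of 10 libraries. Pax6, which amacrine cells express, lay between 675 and 1112 CPM on average in all 6 gates. Against other cells it was higher in 10 of 10 libraries in the Vip gate. In the Slc6a9 gate it was higher in 3 of 10 and in the Gad gate in 1 of 10. In the Gjd2 (778 against 1032 CPM), Chat (675 against 1021) and Slc17a8 (804 against 1016) gates it was higher in 0 of 10. Tfap2b was higher in 10 of 10 in the Gad, Gjd2, Slc17a8 and Vip gates. In the Slc6a9 gate it was higher in 2 of 10 and in the Chat gate in 1 of 10. Tfap2a was higher in 10 of 10 in the Gad and Slc17a8 gates and in 9 of 10 in the Vip gate. It was higher in 6 of 10 in the Chat gate, 1 of 10 in the Gjd2 gate and 0 in the Slc6a9 gate. Slc32a1 was higher in 9 of 10 in the Vip gate, 8 in the Gad gate and 4 in the Slc17a8 gate. In the Slc6a9 and Chat gates it was higher in 2 of 10 each, and in the Gjd2 gate in 0 of 10. The gates are therefore called by their genes.

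Promoter sequence was at hand for 76 of the 92 nuclear genes, from RefSeq on build GRCm38.p6, in windows of 300 bases that run from 250 before to 50 after the start of the gene. Because many of these genes moved together, the windows were searched on both strands for core motifs of factors known for respiratory gene promoters. The NRF1-type motif CGCATGCG, which reads the same on both strands, lay in the windows of 11 of the 76 genes (14.5%) and of 2.07% of 27025 genes with a window. The ETS-type motif CCGGAAGT, or ACTTCCGG on the other strand, lay in those of 5 of the 76 (6.58%) and of 4.31% of all genes, and the YY1-type motif AAGATGGC, or GCCATCTT, in those of 11 (14.5%) and of 3.19% of all genes. These motifs do not overlap one another in the stretches shown. A match is a match of letters, not a measured binding site, and the absence of a match says only that these letters are not in the window. The last 120 bases before the start of the gene are shown for 6 genes whose values recur below, 5 of them with a motif, in capitals, and Cox5b with none of the 3; a further NRF1-type match of Uqcr11 runs across its start and is therefore not in capitals:
Atp5g2, chr15:102671048-102671167, minus strand, NRF1-type: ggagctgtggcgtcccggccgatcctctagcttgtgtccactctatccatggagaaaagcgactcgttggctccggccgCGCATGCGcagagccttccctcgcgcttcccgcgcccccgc
Ndufa11, chr17:56717642-56717761, plus strand, NRF1-type: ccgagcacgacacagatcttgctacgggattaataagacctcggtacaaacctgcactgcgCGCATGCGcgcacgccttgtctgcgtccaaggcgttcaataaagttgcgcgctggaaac
Ndufaf4, chr4:24897963-24898082, plus strand, NRF1-type: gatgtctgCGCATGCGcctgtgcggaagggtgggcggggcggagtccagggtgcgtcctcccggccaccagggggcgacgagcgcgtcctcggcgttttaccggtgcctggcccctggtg
Uqcr11, chr10:80406822-80406941, minus strand, ETS-type: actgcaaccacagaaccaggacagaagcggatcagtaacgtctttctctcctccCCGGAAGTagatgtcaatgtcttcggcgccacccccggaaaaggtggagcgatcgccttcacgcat
Uqcrh, chr4:116075071-116075190, minus strand, ETS-type: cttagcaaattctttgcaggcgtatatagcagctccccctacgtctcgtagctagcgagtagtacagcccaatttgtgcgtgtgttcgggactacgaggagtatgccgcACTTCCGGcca
Cox5b, chr1:36691367-36691486, plus strand, no motif: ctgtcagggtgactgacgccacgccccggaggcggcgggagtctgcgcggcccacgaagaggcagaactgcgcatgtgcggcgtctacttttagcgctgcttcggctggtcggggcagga

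The 92 nuclear genes together made up 4.04% ± 0.226 of all UMIs (SD, n = 10 libraries) and the 13 mt- genes 2.89% ± 0.106. The nuclear share was highest in the Gjd2 gate, at 4.24% to 5.33% over the libraries with a median of 4.67%, and lowest in the Slc17a8 gate, at 3.24% to 3.5% with a median of 3.34%. These ranges did not overlap. Between them, by median, lay the Slc6a9 gate at 4.32% (4.05% to 4.85%), the Chat gate at 4.19% (3.54% to 4.4%), the Gad gate at 3.97% (3.69% to 4.28%) and the Vip gate at 3.73% (3.53% to 4.01%). Neighbours in this order overlapped, except that the Vip gate lay wholly above the Slc17a8 gate.

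By median, the mt- share followed the same order. It ran from 3.47% to 4.30% in the Gjd2 gate (median 3.82%), from 3.18% to 3.95% in the Slc6a9 gate (3.47%), from 2.61% to 3.53% in the Chat gate (3.09%) and from 2.51% to 2.86% in the Gad gate (2.71%). The Vip gate, at 2.24% to 2.85% (2.44%), and the Slc17a8 gate, at 2.03% to 2.81% (2.42%), lay lowest and overlapped. In the Gjd2 gate the nuclear share of each batch 3 library (at least 5.05%) was above that of each batch 2 library (at most 4.49%). Across the cells of a library, the rank correlation between nuclear and mt- share ran from -0.07 to 0.21 over the 10 libraries. It is given as a description, since both shares have the same total.

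**Figure D1:**
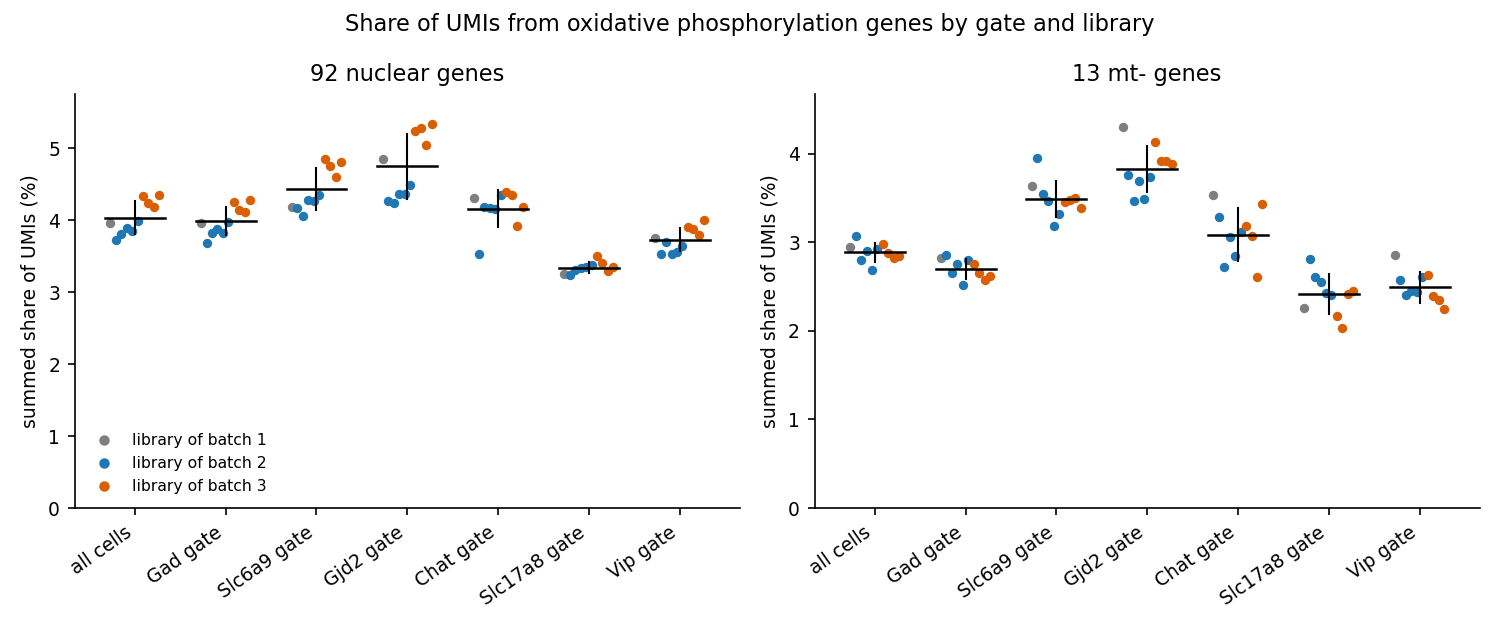
Summed share of UMIs (y axis, percent) of the 92 nuclear genes (left) and of the 13 mt- genes (right) in all cells and in each gate (x axis). Each point is 1 of 10 libraries, coloured by labelled batch, and lines show mean and SD; the Gjd2 gate is highest and the Slc17a8 gate lowest for the nuclear genes.

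Both shares moved with the depth of the cell. When the cells of each library were cut into 5 equal groups by total UMIs, the nuclear share went from 3.37% ± 0.251 in the shallowest group to 4.15% ± 0.247 in the deepest (SD, n = 10). The mt- share went from 4.16% ± 0.805 to 2.85% ± 0.130, and nearly all of that step lay between the shallowest group and the next, at 2.89% ± 0.224. Gates differ in depth: the median over libraries of the median UMIs per cell was 3618 in the Slc6a9 gate, 4686.25 in the Slc17a8 gate, 5606.5 in the Gad gate, 5718.75 in the Vip gate, 6104.25 in the Gjd2 gate and 7768 in the Chat gate. Each of the 5 gate comparisons was therefore made on all gated cells and again on cells drawn to match in total UMIs. Comparisons within a class or within a batch were made on unmatched cells alone. Shares were also fitted per library with log2 total UMIs as a covariate. That fit of shares is linear in log2 UMIs and gives each cell the same weight, whereas summed shares weigh cells by their UMIs. Its differences and the summed ones therefore do not differ by depth alone.

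**Figure D2:**
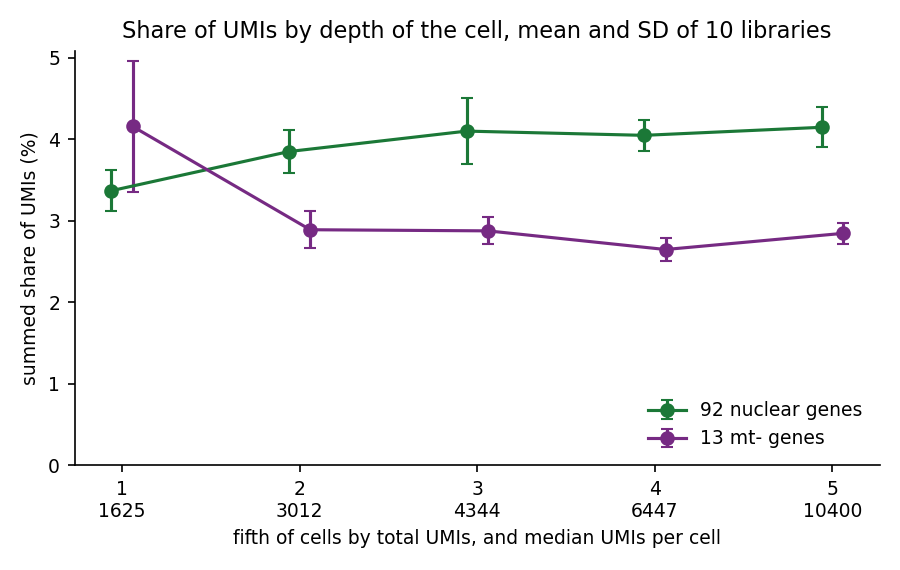
Summed share of UMIs (y axis, percent) of the nuclear and the mt- genes in 5 equal groups of cells by total UMIs (x axis, with the median UMIs per cell of the group). Points are means and bars SDs of 10 libraries; the nuclear share goes from 3.37% to 4.15% and the mt- share from 4.16% to 2.85%.

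For single genes, UMIs were summed per library and side and tested with the quasi-likelihood test of edgeR, with the library as a block and Benjamini-Hochberg adjustment over all genes tested at a threshold of 0.05. Of the 92 nuclear genes, 88 passed the filter on low counts in each comparison of all gated cells. The other 4, all isoforms of complex IV subunits or of Ndufa4, were Cox7b2 with 185 UMIs in all cells, Ndufa4l2 with 260, Cox8b with 6 and Cox8c with 0, where a count of 0 allows up to 3. The 5 comparisons share cells, since the other cells of each gate are largely the same, so their values are set side by side and not correlated. How reads shared with pseudogene copies, which many of the nuclear genes have, were counted is not given in the sources used here.

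In cells of the Gjd2 gate, which takes in AII cells, most genes of the respiratory chain were higher than in other cells. Of the 88 nuclear genes tested, 74 were higher and 2 lower, where 23.9% of all 11648 genes tested were higher and 24.5% lower; the median log2 change was 0.27 against 0.00 for all genes. All 13 mt- genes were higher, with a median of 0.48. On cells matched for depth, 74 of 87 nuclear genes were higher and 2 lower, and all 13 mt- genes were higher again, where 21.7% and 22.0% of all genes were called higher and lower. The summed nuclear share exceeded that of other cells by 0.777 ± 0.257 percentage points and the mt- share by 1.03 ± 0.235 (SD, n = 10), in 10 of 10 libraries each. Within batches, the nuclear difference was 0.540 points in batch 2 and 1.02 in batch 3, and batch 1 has a single library.

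Genes of every complex were higher. In complex I, 34 of 36 subunits were higher, led by Ndufb9, an accessory subunit of the membrane arm (chromosome 15, 58933756 to 58939488, GRCm38). It ran from 573 to 858 CPM over the libraries in the gate, with a median of 697, and from 459 to 563 CPM in other cells, with a median of 496, so the groups did not overlap. Its log2 change was 0.53 ± 0.04 (SE; edgeR adjusted p = 2.5e-10).

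All 4 subunits of complex II, all 8 of complex III and 14 of 15 of ATP synthase were higher, as were 12 of the 15 tested of complex IV. Uqcr11, a small subunit of complex III, lay at 544 to 694 CPM in the gate and at 437 to 493 CPM in other cells, with medians of 627 and 456 and a log2 change of 0.48. Cox6c and Cox5b, both nuclear subunits of complex IV, had medians of 1614 and 912 CPM in the gate and of 1211 and 683 CPM elsewhere, with log2 changes of 0.46 and 0.46 and no overlap. Atp5a1, the alpha subunit of ATP synthase, had medians of 707 and 514 CPM (log2 change 0.46), and its ranges overlapped, since its lowest library in the gate was at 599 CPM and its highest in other cells at 617.

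Of the 8 assembly factors of complex I, 2 were higher (Ndufaf4, log2 change 0.22, and Atp5sl, 0.17) and 2 lower (Ndufaf1, -0.21, and Ndufaf2, -0.18), and these 4 calls were the same on matched cells. With DESeq2 1 of the 8 was lower, and with mean UMIs as a covariate in edgeR none was, also at an unadjusted p under 0.05. Cox7a2l was level at -0.00 and was not called. Ndufb7, whose product sits on the outer face of complex I, had medians of 390 CPM in the gate and 352 CPM elsewhere and rose by 0.20.

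Among the mt- genes, mt-Co1, the catalytic subunit of complex IV (chromosome M, 5328 to 6872), had the largest change. It ran from 4344 to 5934 CPM in the gate, with a median of 4921, and from 2881 to 3563 CPM in other cells, with a median of 3116, for a log2 change of 0.71 ± 0.03 (SE; edgeR adjusted p = 1.9e-13). mt-Cytb, cytochrome b of complex III, followed with medians of 4568 and 3216 CPM and a log2 change of 0.58, and mt-Co2 with 3979 and 2775 CPM and 0.57. None of these ranges overlapped. The smallest changes were those of mt-Atp8, at 0.30, and mt-Nd3, at 0.31.

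The Gjd2 gate draws on both transmitter classes, so it was also compared inside 1 class. This was done on all such cells and not repeated on cells matched for depth, so the part of depth was not tested. Among cells of the Slc6a9 gate, those that also met the Gjd2 gate had 76 of 83 nuclear genes higher and 2 lower, beside 21.9% and 22.8% of all genes, with a median log2 change of 0.45, and 12 of 12 tested mt- genes higher; the summed nuclear share differed by 1.30 points. Müller glia markers summed to 0.0348% to 0.0738% of UMIs in the Gjd2 gate and were 0.0594 ± 0.0202 points lower than in other cells. Dissociation stress genes were 0.0440 ± 0.0164 points lower. The part of either in the differences was not tested.

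**Figure D3:**
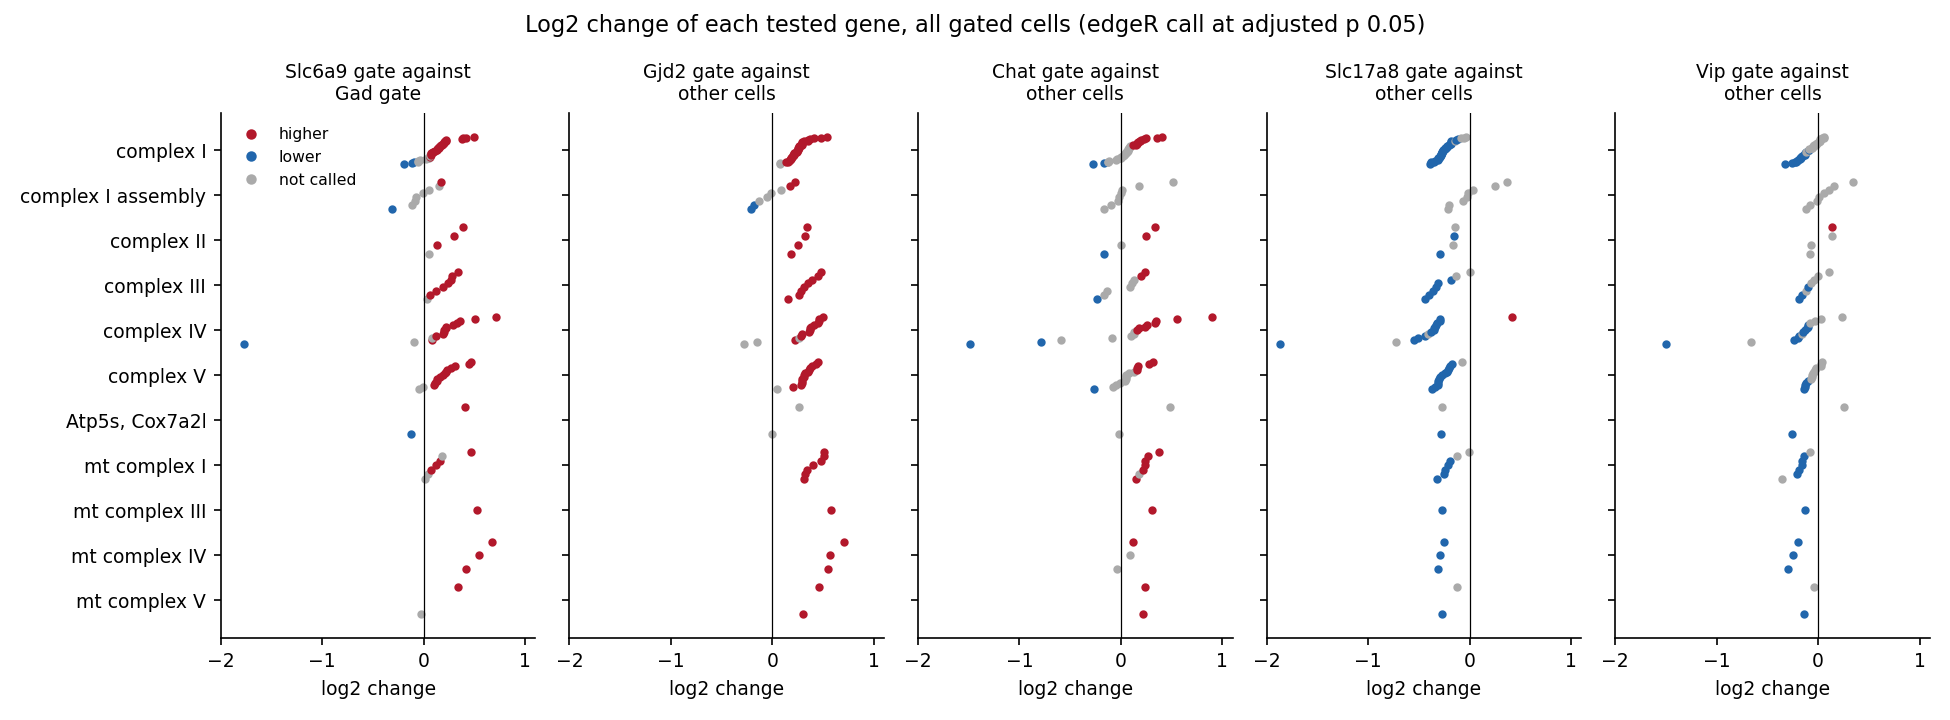
Log2 change (x axis) of each tested gene in each of the 5 comparisons (panels), grouped by complex (y axis); 1 point is 1 gene, red higher, blue lower and grey not called by edgeR at an adjusted p of 0.05. In the Gjd2 panel 74 of 88 nuclear genes are higher and in the Slc17a8 panel 67 are lower, while the 8 assembly factors of complex I spread around 0 in both.

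Slc6a9-gated cells, set against Gad-gated cells, compare the glycinergic with the GABAergic class. Here 62 of 88 nuclear genes were higher and 6 lower, beside 32.1% and 29.1% of all 11253 genes, with a median log2 change of 0.14 against 0.03 for all genes. Of the mt- genes, 9 of 13 were higher and none lower (median 0.18). Slc6a9-gated cells were the shallower side. On matched cells 69 of 85 nuclear genes were higher and 1 lower, beside 25.0% and 23.9% of all genes, with a median of 0.23, and 9 of 13 mt- genes were higher. The nuclear share was 0.441 ± 0.134 points above that of the Gad gate and the mt- share 0.788 ± 0.157, in 10 of 10 libraries each; with total UMIs as a covariate by cell the differences were 0.644 ± 0.339 (10 of 10) and 0.517 ± 0.495 (8 of 10). With log2 mean UMIs of each summed column as a covariate in edgeR, 3 nuclear and 2 mt- genes were higher, and the median SE of the nuclear genes was 5.17 times that without it. The nuclear difference was 0.389 points within batch 2 and 0.558 within batch 3. Batch 2 libraries, of 3315 to 4738 cells, gave 337 to 435 cells to the Slc6a9 gate. Batch 3 libraries, of 1616 to 3229 cells, gave 342 to 736. Ganglion cell markers summed to 0.0191% to 0.0242% of UMIs in the gate in batch 2 and 0.0429% to 0.0515% in batch 3. Whether the gate took the same cell types in both batches was not tested. The share of Müller glia markers differed by -0.0803 ± 0.00689 points, that of dissociation stress genes by -0.115 ± 0.0215 and that of ribosomal protein genes by -0.184 ± 0.0889, each lower in the Slc6a9 gate in 10 of 10 libraries, and rod markers differed by 0.00290 ± 0.00133, higher in 10 of 10. Their part in the differences was not tested.

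The genes with the largest change among those called in both fits and higher in every library were Cox5a and Ndufc2. Cox5a, a matrix-side subunit of complex IV, lay at 625 to 1065 CPM with a median of 754 in the Slc6a9 gate, and at 504 to 671 CPM with a median of 571 in the Gad gate, for a log2 change of 0.50 ± 0.04 (SE; edgeR adjusted p = 1.4e-09). The ranges overlapped at their edges. Ndufc2, a membrane subunit of complex I, rose by 0.50 with medians of 784 and 596 CPM. The beta and alpha subunits of ATP synthase followed, Atp5b by 0.46 (medians 1466 and 1141 CPM) and Atp5a1 by 0.45 (676 and 507 CPM). Of these 4 genes only Atp5a1 had ranges that did not overlap. Ndufs1, the largest core subunit of complex I, rose by 0.42 and Sdhc, a membrane anchor of complex II, by 0.39.

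Counts by complex were 25 of 36 higher and 3 lower in complex I, 3 of 4 higher in complex II, 7 of 8 in complex III, 12 of 15 higher and 1 lower in complex IV and 13 of 15 higher in ATP synthase. The 6 nuclear genes that were lower were Ndufa6, Ndufa11, Ndufb7, Ndufaf1, Cox6a2 and Cox7a2l. Ndufa6, an accessory subunit of complex I, lay at 464 to 523 CPM in the Slc6a9 gate and at 530 to 593 CPM in the Gad gate, without overlap, and fell by 0.19; on matched cells its log2 change was -0.07 and it was not called. Of these 6, Cox6a2 had too few counts to be tested on matched cells. Among the rest only Cox7a2l was also called there, with a log2 change of -0.10 (edgeR adjusted p = 0.020).

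The log2 changes of the mt- genes ran from -0.02 to 0.68. mt-Co1, with medians of 4450 CPM (Slc6a9 gate) and 2852 CPM (Gad gate), rose by 0.68, mt-Co3 (6234 and 4328 CPM) by 0.55, mt-Cytb (4276 and 3056 CPM) by 0.53 and mt-Nd4 (2275 and 1672 CPM) by 0.47, none with overlap. mt-Nd1, in contrast, had medians of 5003 and 4798 CPM and rose by 0.07, and mt-Nd2 rose by 0.12. mt-Nd3, mt-Nd4l, mt-Nd6 and mt-Atp8 were not called, with log2 changes of 0.04, 0.02, 0.18 and -0.02; on matched cells mt-Nd6 was higher, at 0.42, and mt-Nd1 was not called, at 0.06.

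Cells with a Gjd2 UMI made up 31.6% of the Slc6a9 gate and 19.9% of the Gad gate, and the comparison was repeated without them on both sides, an alternative added after the Gjd2 gate had been seen to stand highest. No cell class known to lack Gjd2 was at hand, so the part of free RNA in these UMIs was not tested. Without them, 15 of 87 nuclear genes were higher and 22 lower, beside 25.9% and 25.3% of all genes, with a median log2 change of -0.02. On matched cells 24 of 85 were higher and 4 lower, beside 17.2% and 18.7% of all genes, with a median of 0.06. Of the 62 nuclear genes higher with all gated cells, 13 were still higher, 40 were not called and 9 were lower. The 6 nuclear genes with the largest changes among those called in both fits and higher in every library were still higher. Examples were Cox5a at 0.41, Ndufc2 at 0.44 and Atp5b at 0.26. On matched cells without a Gjd2 UMI, Ndufs1, one of these 6, was at 0.09 and not called (edgeR adjusted p = 0.37). On the unmatched cells without a Gjd2 UMI, the difference in nuclear share became -0.0176 points and that in mt- share 0.227 points. Shares were not computed on the matched ones.

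Among the mt- genes, mt-Co1 (0.38), mt-Co3 (0.28), mt-Cytb (0.23), mt-Nd4 (0.22) and mt-Co2 (0.10) remained higher without cells with a Gjd2 UMI. mt-Nd1 (-0.19), mt-Nd2 (-0.19), mt-Nd3 (-0.16), mt-Nd4l (-0.22) and mt-Nd5 (-0.11), all subunits of complex I, were then lower. On matched cells mt-Co2 and mt-Nd5 were no longer called. With all gated cells and without cells with a Gjd2 UMI, the log2 changes of mt-Co1, mt-Co3 and mt-Cytb were above those of all 7 mt-Nd genes. On matched cells without a Gjd2 UMI the exception was mt-Cytb, at 0.17 beside 0.18 for mt-Nd4. These differences between genes were not themselves tested.

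**Figure D4:**
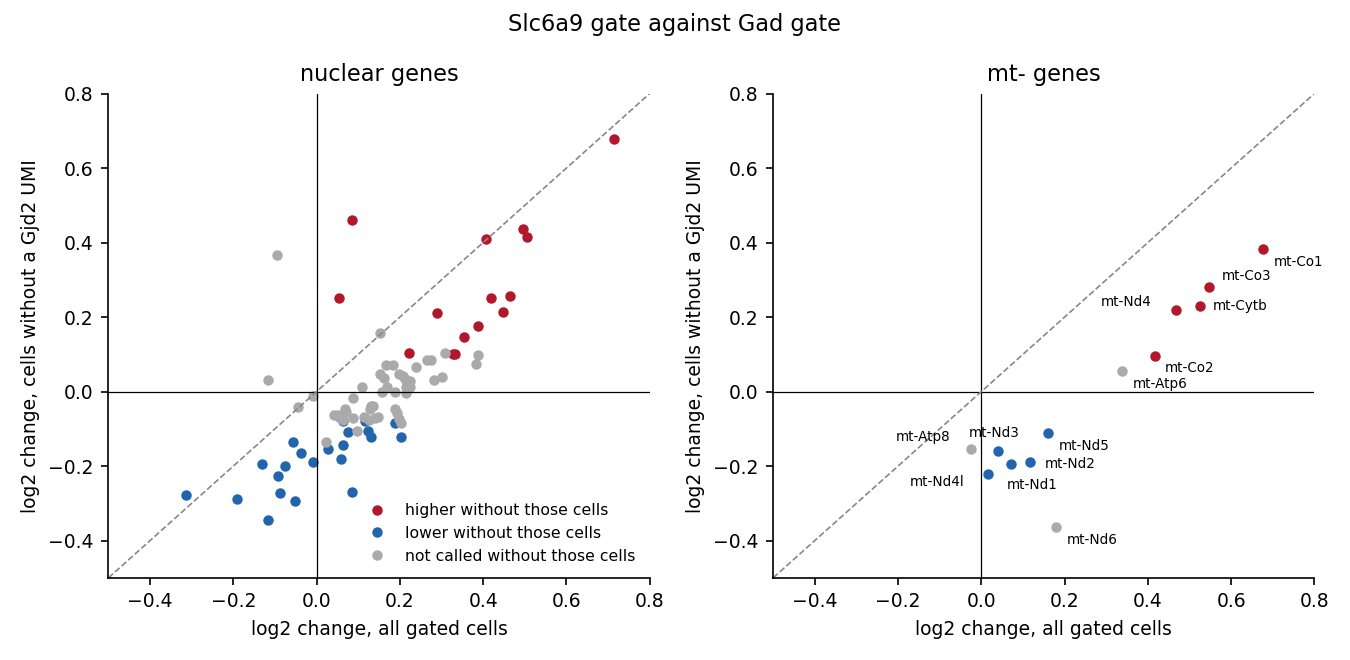
Log2 change of the Slc6a9 gate against the Gad gate with all gated cells (x axis) and without cells that had a Gjd2 UMI (y axis), for nuclear (left) and mt- genes (right). Each point is 1 gene, coloured by its edgeR call without those cells, and the dashed line marks equal values; 15 nuclear genes are higher and 22 lower without them.

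Cells of the Slc17a8 gate, which takes in VG3 cells, had the lowest nuclear share. Of 88 nuclear genes, 67 were lower and 1 higher, beside 14.5% and 10.6% of all 11460 genes, with a median log2 change of -0.27 against -0.01 for all genes; 10 of 13 mt- genes were lower and none higher (median -0.25). On matched cells 62 of 83 nuclear genes were lower and 2 higher, beside 13.3% and 11.6% of all genes, and 10 of 12 mt- genes were lower. The nuclear share differed from that of other cells by -0.712 ± 0.187 points and the mt- share by -0.485 ± 0.242, in 10 of 10 libraries each. The nuclear difference was -0.552 points in batch 2 and -0.910 in batch 3. The share of ribosomal protein genes differed by -0.400 ± 0.146 points and that of Müller glia markers by -0.0149 ± 0.00918, each lower in 10 of 10 libraries. Their part in the differences was not tested.

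The largest falls lay in complexes IV and III. Cox7b, a small subunit of complex IV encoded on the X chromosome, ran from 333 to 513 CPM with a median of 421 in the gate and from 566 to 654 CPM with a median of 625 in other cells, and fell by 0.55 (edgeR adjusted p = 1.4e-10). Cox5b fell by 0.51, from a median of 707 CPM in other cells to 506 CPM in the gate, and Cox5a by 0.44. In complex III, Uqcr10 fell by 0.44 (medians 391 and 521 CPM) and Uqcrh, the hinge protein, by 0.40 (469 and 617 CPM). Except for Cox5a, the ranges of these genes did not overlap. In complex I, 32 of 36 subunits were lower, in ATP synthase 14 of 15 and in complex II 2 of 4, while none of the 8 assembly factors was called by edgeR or by DESeq2 (1 was higher and 1 lower by edgeR at an unadjusted p under 0.05).

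Cox6b2, an isoform of complex IV subunit 6b that is best known from testis, was the nuclear gene that was higher. It lay at 43.7 to 72.9 CPM in the gate and at 33.2 to 43.5 CPM in other cells, with a median of 48.4 against 39.2, and rose by 0.42 ± 0.10 (SE; edgeR adjusted p = 0.0021) and by 0.50 on matched cells. Ndufaf7, which methylates a complex I subunit, was higher on matched cells alone (0.41). Of the mt- genes, mt-Nd1 fell by 0.32, with medians of 3877 and 4890 CPM and no overlap, and mt-Co3 and mt-Co2 fell by 0.31 and 0.29.

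Among Vip-gated cells, too, more members were lower than higher. Of 88 nuclear genes, 35 were lower and 1 higher, beside 13.1% and 12.5% of all 11430 genes, with a median log2 change of -0.08 against -0.00 for all genes; 10 of 13 mt- genes were lower (median -0.16). On matched cells 33 of 84 nuclear and 10 of 12 mt- genes were lower and none higher, beside 12.4% of all genes called in each direction. Ndufa1, an accessory subunit of complex I encoded on the X chromosome, had medians of 308 and 382 CPM and fell by 0.33. Ndufc1 fell by 0.25 and Cox5b by 0.24, with medians of 437 against 532 CPM and 605 against 705 CPM and no overlap. Cox7a2l, Ndufa2 and Ndufb7 fell by 0.26, 0.23 and 0.22, with ranges that overlapped. Among the mt- genes mt-Co1 fell by 0.30 (medians 2721 and 3282 CPM, no overlap), mt-Co3 by 0.25 and mt-Nd2 by 0.16. The nuclear share was -0.316 ± 0.106 points and the mt- share -0.405 ± 0.149 points from that of other cells, with the same sign in 10 of 10 libraries. The share of ribosomal protein genes differed by -0.374 ± 0.109 points, lower in 10 of 10, and stress genes by 0.0251 ± 0.0184, higher in 8 of 10, and their part was not tested. With mean UMIs as a covariate in edgeR no nuclear gene was lower (10 at an unadjusted p under 0.05, with a median SE 4.48 times as large).

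In Chat-gated cells the differences in summed share were smaller than their SD between libraries. The nuclear share differed from that of other cells by 0.126 ± 0.261 points, up in 7 of 10 libraries, and the mt- share by 0.205 ± 0.255, up in 8 of 10. Of 88 nuclear genes, 29 were higher and 7 lower, beside 16.8% and 18.0% of all 11418 genes, and 10 of 13 mt- genes were higher and none lower. On matched cells 19 of 83 nuclear genes were higher and 6 lower, beside 17.9% and 18.3% of all genes, which is near the background, and 9 of 12 mt- genes were higher. In batch 2 alone 31 nuclear genes were higher and 8 lower, beside 14.0% and 15.5% of all genes, and in batch 3 alone 3 were higher and 4 lower, beside 5.23% and 6.54%. The share of ribosomal protein genes was higher by 0.276 ± 0.177 points, in 9 of 10 libraries, while Müller glia markers (-0.0694 ± 0.0146) and stress genes (-0.0860 ± 0.0330) were lower in 10 of 10; their part was not tested. The gate held 17 to 129 cells per library. Without library 4, 19 nuclear genes were higher, and with mean UMIs as a covariate in edgeR none was (8 at an unadjusted p under 0.05, with a median SE 5.90 times as large). Without cells that carried markers of other classes, a broad rule that took 30.1% of all cells, 5 mt- genes were higher and the mt- difference was -0.0663 points.

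The genes named in the Chat gate moved in both directions. Ndufb4 of complex I rose by 0.36 (medians 565 and 452 CPM), Cox8a of complex IV by 0.34 (2046 and 1664 CPM), Atp5l, the g subunit of ATP synthase, by 0.31 (1099 and 894 CPM) and Cox5b by 0.24 (778 and 695 CPM). Atp5c1, the gamma subunit that turns inside ATP synthase, fell by 0.27 (394 and 504 CPM) and Ndufa9 of complex I by 0.28 (84.3 and 116 CPM). All these ranges overlapped. No mt- gene was both called in both fits and moved the same way in every library. The strongest fall among genes tested on matched cells was that of Cox6b2, at 12.3 to 38.9 CPM in the gate and 34.2 to 44.4 CPM in other cells, by 0.79 and, on matched cells, by 0.87.

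**Figure D5:**
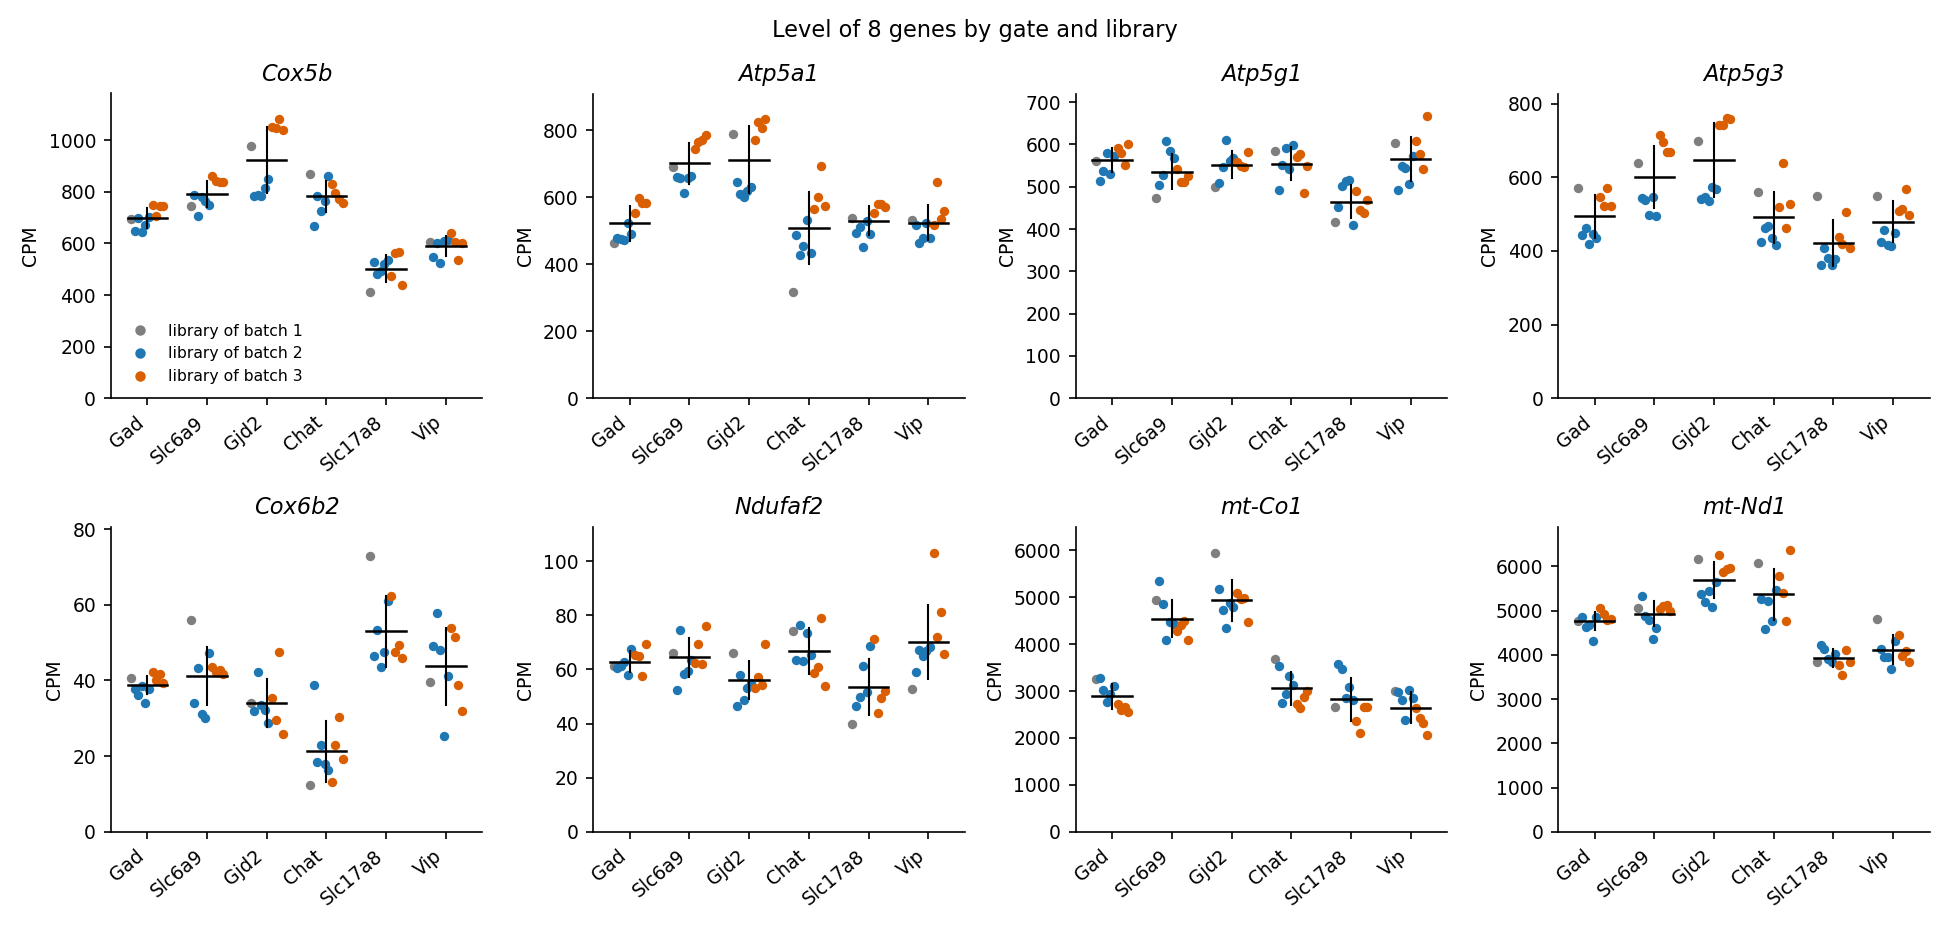
Level (y axis, CPM from 0) of 8 genes in the 6 gates (x axis); points are 10 libraries coloured by labelled batch and lines show mean and SD. Cox5b ranges from a median of 506 CPM in the Slc17a8 gate to 912 CPM in the Gjd2 gate, whereas Atp5g1 stays between 461 and 568 CPM.

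The 3 genes for the c subunit of ATP synthase, which encode the same mature protein behind different import sequences, were read one by one. Atp5g1 was not called in the Gjd2 gate, with a median of 553 CPM against 561 CPM in other cells (log2 change 0.04), nor in the Slc6a9 gate (-0.05), although on matched cells it was higher there (0.15). Atp5g3 rose by 0.43 in the Gjd2 gate (medians 636 and 494 CPM) and by 0.31 in the Slc6a9 gate, and Atp5g2, whose promoter stretch with an NRF1-type match is shown above, by 0.28 and 0.10. In the Slc17a8 gate all 3 fell, by 0.27, 0.24 and 0.30 for Atp5g1, Atp5g2 and Atp5g3. None of the 3 was called in the Chat or the Vip gate.

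Tissue-restricted isoforms of complex IV were scarce. Cox4i2, a form known from lung, had a median of 6.19 CPM in the Gad gate, 6.45 in the Slc6a9 gate, 8.77 in the Gjd2 gate, 10.8 in the Chat gate, 5.01 in the Slc17a8 gate and 1.74 in the Vip gate; it was higher in the Gjd2 gate (0.50, edgeR adjusted p = 0.013), higher in the Chat gate (0.89, adjusted p = 0.036) and lower in the Vip gate (-1.50, adjusted p = 0.00098). Cox6a2, a heart and muscle form, was at 3.79 to 6.10 CPM in the Gad gate and at 0 to 2.60 CPM in the Slc6a9 gate, without overlap, and fell by 1.77; it was also lower in the Chat and Slc17a8 gates. Cox7a1, another muscle form, rose by 0.72 in Slc6a9-gated cells, with medians of 7.26 CPM there and 5.17 CPM in Gad-gated cells. These 3 genes had too few counts for some or all of the fits on matched cells. Ndufa4l2 and Cox8b had medians of at most 1.46 CPM and 0.02 CPM in any group and were not tested.

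Genes of the same pathway that the naming rule did not take were read from a list of 37, which holds cytochrome c, its partner Cyc1 and assembly factors. In the Gjd2 gate 13 of 37 were higher and 3 lower (median log2 change 0.09), beside 23.9% and 24.5% of all genes. In the Slc6a9 gate 10 were higher and 6 lower (0.00), both below the shares of all genes, 32.1% and 29.1%. In the Slc17a8 gate none was higher and 10 lower (-0.16), beside 10.6% and 14.5%, in the Vip gate 1 higher and 9 lower, beside 12.5% and 13.1%, and in the Chat gate 9 higher and 1 lower, beside 16.8% and 18.0%. Higd1a, which binds complexes III and IV, had medians of 661 CPM in the Gjd2 gate and 460 CPM elsewhere (0.59), and Atpaf1, an assembly factor of ATP synthase, of 60.4 and 45.7 CPM (0.50). Coa7, an assembly factor of complex IV, fell by 0.34 in the Slc6a9 gate (22.8 and 29.5 CPM) and was not called in the Gjd2 gate.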

How the data were processed

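The deposited table gave UMI counts, whole numbers per gene and cell that were not normalized, for cells of 10 libraries joined in 1 table. Per the submitters' processing notes they were made with Cell Ranger 2.1.0 on build mm10. The annotation is not given in the sources used here, nor is how cells were chosen or whether doublets had been taken out. The lowest number of genes detected in a cell of the table was 601. Libraries were told apart by the start of each cell name, and all columns belonged to a library.

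The members of the gene set, the gates and the lists of further genes were chosen with earlier results of these data known. UMIs were summed per library and gate side, for sides with at least 10 cells, and levels are given in CPM, counts per 1000000 UMIs of that sum, which are not scaled by gene length because the 3′ chemistry counts 1 end of each molecule. Genes were tested with edgeR 4.0.16 in R 4.3.3 (limma 3.58.1), with TMM normalization, its filter on low counts, the library as a block and Benjamini-Hochberg adjustment over all genes tested. The SE of a log2 change is its size divided by the square root of the F statistic, since the test gives none. A second fit used cells drawn within each library to match in total UMIs, in bins of 0.25 log2 units, with 2 comparison cells per gated cell where the bin had them and a fixed seed. Because each library gives both sides, the library block pairs them. The fits were also run on counts simulated from a common profile, in which libraries differed only in depth. That run does not show how they handle other differences between libraries, and its outcome is not given here.

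The genes named in each comparison were up to 6 nuclear and up to 3 mt- genes with the largest change among those called in both fits and moving the same way in every library, together with 7 isoform genes and the 3 Atp5g genes in every gate and up to 3 genes of each further list by their change in the Slc6a9 gate. A gene that this rule named is not reported here. Genes named beyond this rule (the lowest and the highest mt- genes, the genes called against the direction of most, and examples of each complex) were chosen after their values were seen.

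The depth of the libraries is given in the report, and each summed value is limited in precision by the number of cells behind it. No cells were removed and no doublet caller was run; leaving out the cells above the 95th percentile of UMIs in their library stood in for it. Other alternatives were DESeq2 1.42.0, its size factors in edgeR, no filter on low counts, no library block, depth as a covariate, each batch alone, higher gates, totals without mitochondrial and ribosomal protein genes, and leaving out other cell classes or each library in turn. Gene positions are from GENCODE M21 (GRCm38) and promoter windows from RefSeq (GRCm38.p6); the tables were handled in Python 3.11.15.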

Additional observations from a re-analysis of the deposited data

Results flagged for a closer look

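Groups of 10 libraries were looked at for the summed nuclear and mt- shares in all cells and in each gate. The members named by their change were looked at in the gate of their comparison. In 3 of these 56 groups 1 library stood apart by Dixon's test at its 95% critical value, where chance gives about 1 such group in 20. In the Chat gate, Atp5l was at 816 CPM in library 2, below 1037 to 1224 CPM in the other libraries. In the Slc17a8 gate, Uqcrh was at 345 CPM in library 1, below 435 to 528 CPM in the others. In the Gjd2 gate, mt-Co1 was at 5934 CPM in library 1, above 4344 to 5173 CPM in the others. Library 1 is the single library of batch 1 and gave 24 cells to the Slc17a8 gate and 61 to the Gjd2 gate.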

How the results depend on the processing

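In the Gjd2 and Slc17a8 gates the counts of members called in the direction of most (higher and lower, respectively) stayed within 1.5 times of the reported ones under the alternatives run. The summed shares there moved as follows: in the Gjd2 gate the nuclear difference was 1.1 points without cells carrying markers of other classes and 1.30 within the Slc6a9 gate, and the mt- difference 1.45 within the Slc6a9 gate and 1.40 with UMIs per cell as a covariate. The values within the Slc6a9 gate are from cells not matched for depth. In the Slc17a8 gate the nuclear difference was -0.910 points in batch 3 alone and the mt- difference -0.771 without cells carrying markers of other classes. In the Slc6a9 gate, leaving out cells with a Gjd2 UMI (added after the data were seen) gave 15 nuclear and 5 mt- genes higher, and 24 and 4 on matched cells. On the unmatched cells it gave a nuclear difference of -0.0176 points, which is a change of sign, and a mt- difference of 0.227. With cells with a Gjd2 UMI kept, the differences were 0.644 and 0.517 points with UMIs per cell as a covariate. On matched cells the nuclear one was then 0.718. Depth as a covariate of the summed columns left 3 nuclear and 2 mt- genes higher in the Slc6a9 gate. With it, 0 of either were higher in the Chat gate (at an unadjusted p under 0.05, 8 and 4). In the Vip gate 0 nuclear and 0 mt- genes were then lower (10 and 2). The median SEs in these gates were 3.89 to 5.90 times those without the covariate. How far gate and depth coincide in these columns was not tested. In the Chat gate 15 nuclear genes were higher without the filter on low counts and 3 in batch 3 alone; of the mt- genes, 6 were higher without the library block, 2 in batch 3 alone and 5 without cells of other classes, where the mt- difference was -0.0663 points, beside 0.470 with UMIs per cell as a covariate. Leaving out each library in turn gave 19 to 34 higher nuclear genes in the Chat gate, and no other count of members in the direction of most left the 1.5-fold range. In the Vip gate 17 nuclear and 6 mt- genes were lower without the library block, the fit that ignores the pairing of sides within a library, and 23 nuclear genes in batch 3 alone. Counts against the direction of most are of few genes and moved more: the nuclear genes lower in the Slc6a9 gate ran from 0 to 22 (6 reported; 0 to 4 on matched cells, 1 reported) and the mt- genes lower there from 0 to 5 (0), those lower in the Gjd2 gate from 0 to 3 (2; 0 without library 4), those lower in the Chat gate from 0 to 12 (7), those higher in the Slc17a8 gate from 0 to 2 (1) and those higher in the Vip gate from 0 to 3 (1; 3 without library 10 and 0 without library 3, 4 or 6). The cause of these changes was not tested.

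Of the named genes, 9 changed sign under 1 alternative each. With depth as a covariate of the summed columns the log2 change in the Slc6a9 gate was -0.0458 for Cox5a, -0.0592 for Ndufc2, 0.54 for Coa7, -0.0387 for Ckb and -0.91 for Trak2, and that of mt-Nd2 in the Vip gate was 0.0108. Without cells with a Gjd2 UMI it was -0.0976 for Higd1a, -0.0230 for Pfkp and -0.63 for Esrrg. The broad rule on other classes took 28.8% of all cells by Müller glia markers alone, and a stricter rule, added after the data were seen, took 1.14%; under that one no count in the direction of most moved by over 1.5 times. Genes under about 10 CPM, such as the restricted isoforms, rest on few UMIs per library, so that differences between gates may not be detectable there.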

Other observations

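Genes of neighbouring pathways were read from lists. In the Gjd2 gate, where 23.9% of all genes were higher and 24.5% lower, 19 of 22 glycolysis genes were higher and 2 lower (median log2 change 0.48), and on matched cells 17 of 21 were higher and 1 lower. Pfkp, a phosphofructokinase, had medians of 232 CPM in the gate and 111 CPM in other cells, a log2 change of 1.15. Of the 18 tested genes of the TCA cycle and pyruvate dehydrogenase 12 were higher and none lower, of 12 carriers and ATP-buffering enzymes 8 were higher, and of 13 genes for calcium uptake and mitochondrial dynamics 9 were higher. Mcu, the pore of the mitochondrial calcium uniporter, had medians of 100.1 CPM in the gate and 34.3 CPM in other cells, and rose by 1.47. Esrrg, a nuclear receptor known to act on respiratory genes, had medians of 75.3 and 26.3 CPM and rose by 1.57, whereas Lrpprc, which stabilises mitochondrial mRNA, fell by 0.61.

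In the Slc6a9 gate 14 of 22 glycolysis genes were higher and 4 lower, beside 32.1% and 29.1% of all genes. Aldoc, an aldolase, had medians of 343 CPM there and 1018 CPM in the Gad gate and fell by 1.54, while Eno1, an enolase with near-identical copies in the genome whose counts are therefore uncertain, rose by 0.87. Mcu had medians of 94.8 and 22.9 CPM and rose by 1.92, and without cells with a Gjd2 UMI by 1.22. Ppargc1a, a coactivator of mitochondrial biogenesis, rose by 0.88 and Lrpprc fell by 1.30, with medians of 24.0 and 64.3 CPM; without cells with a Gjd2 UMI their log2 changes were 0.89 and -1.45. In the Slc17a8 gate 5 of 18 genes of the TCA cycle list and 7 of 12 carriers were lower and none higher, beside 14.5% and 10.6% of all genes, and Ckb, the brain creatine kinase, fell by 0.59. In the Vip gate 10 glycolysis genes were lower and 2 higher, beside 13.1% and 12.5% of all genes. In the Chat gate 6 were higher and 6 lower, beside 16.8% and 18.0%.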
